A study of Pyrus pyrifolia with 6 samples.

Results

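The genes of scaffold NW_008988220.1 of the Chinese white pear (Pyrus × bretschneideri) assembly were compared between the green fruit skin of ‘Suisho’ sand pear and the russet skin of ‘Niitaka’. The members were all genes that the deposited gene table places on this scaffold, without the loci newly assembled by the authors, which gave 115 of the 42966 genes of the table. ‘Suisho’ is a bud mutant of ‘Niitaka’, that is, a line propagated from a changed shoot of the parent, and both are Pyrus pyrifolia. RNA-Seq was done on skin sampled at 80 DAA (days after anthesis) from healthy trees in the open, with 10 fruits pooled in each sample and 3 samples of each line, which are named B1, B2 and B3 for green and A1, A2 and A3 for russet. Values are always given in that order. Each line is 1 genotype, so skin type and line cannot be told apart, and the reference genome is from another Pyrus species than the samples.

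A scaffold is a stretch of assembled sequence, so its genes are neighbours on 1 chromosome and usually have unrelated functions. Each gene is transcribed from its own promoter, on either strand. Green pear skin is covered by a cuticle of cutin and wax on the epidermis, and russet skin by a periderm, layers of cork cells with suberin in their walls. The labels were checked with genes of both barriers: a cuticle list of 6 genes summed to 104.3 to 143.3 FPKM in green libraries and 1.01 to 2.11 FPKM in russet libraries, in which 4 of its genes were at 0 throughout. A periderm list of 5 genes summed to 7.89 to 8.37 FPKM in green libraries and 81.6 to 147.5 FPKM in russet libraries. Both lists were chosen with results of these data known, so they are no independent check of the labels. FPKM is the number of fragments scaled to gene length and to the size of the library. In skin, a bulk tissue, fewer cells of a type and less RNA per cell cannot be told apart, and the part of this change of cell layers in the values below was not tested.

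Most genes of the scaffold were lower in green skin. The 115 members took 0.0755%, 0.0721% and 0.0778% of the reads of the green libraries, a mean of 0.0751% ± 0.0029 (SD, n = 3), against 0.158%, 0.148% and 0.160% in the russet libraries, a mean of 0.155% ± 0.0067 (SD, n = 3). The summed FPKM of the members was 513.3, 487.7 and 518.6 in green skin, against 1083, 976.7 and 1047 in russet skin, so the green mean was 48.9% of the russet mean. Without the 3 genes of highest mean FPKM it was 50.5%, so the lower sum did not rest on the most abundant genes. The libraries of a line lay close together, and no green library reached a russet one. The scaffold was chosen by these values, the FPKM of its genes in green against russet skin, so its differences are a description. Calls of the fit over all genes are given below in the same sense and are no evidence about the scaffold.

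**Figure D1:**
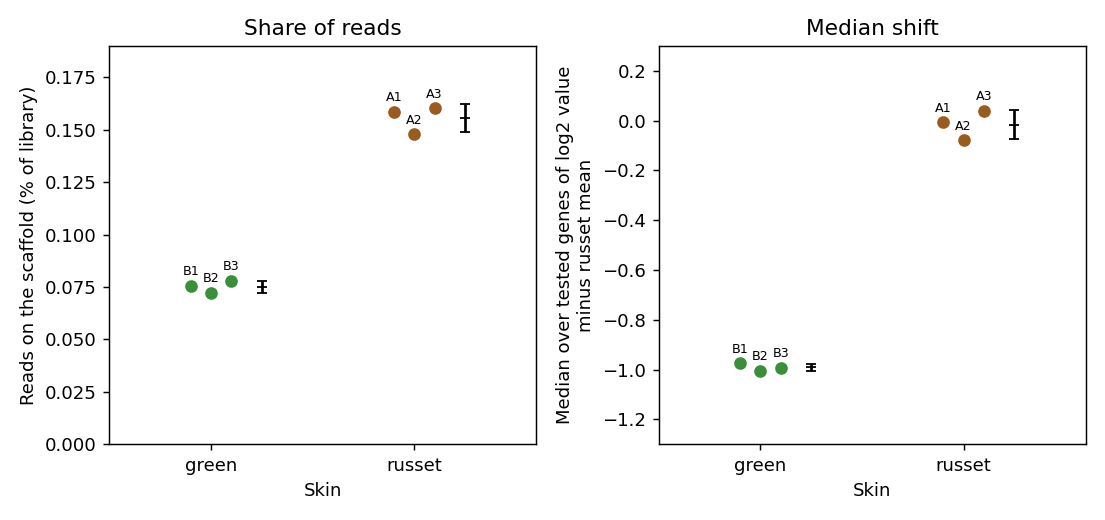
Left, share of the reads of each library on the 115 genes of the scaffold (% of library). Right, median of the 94 tested genes for the log2 value minus the gene's russet mean. Points are libraries, green left of russet, and the bars beside them show mean ± SD (n = 3). The 3 green libraries sit between 0.0721% and 0.0778%, under the 3 russet libraries.

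Differences were taken as green minus russet on the scale of log2(FPKM + 0.1), which understates the change of low genes. Genes averaging 0.1 FPKM or more across the 6 libraries were tested, which left 94 of the 115 members. Both lines averaged that much for 87 of these, while 6 entered through russet skin alone and 1 through green skin alone. Of the 94 genes, 84 (89.4%) had a negative difference and 10 a positive one, while 50.4% of all 30161 genes tested were lower in green skin. Their median difference was -0.95, with quartiles at -2.002 and -0.47 and a range of -4.55 to 2.59. Over all genes the median was -0.0032. Against the russet mean, the median of the 94 genes was -0.98, -1.004 and -0.99 in B1, B2 and B3, and -0.0073, -0.079 and 0.040 in A1, A2 and A3.

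With limma and an adjusted p under 0.05 over all genes, 58 members passed as lower in green skin, beside 8.05% of all genes, and 2 passed as higher, beside 7.29% of all genes. The other 34 did not pass. To pass is also termed a call below, and calls were repeated without each library in turn, with other settings and with the column number (1, 2 or 3) as a block. Every green value was under every russet value for 71 members, where 17.2% of all genes had this order, and every green value was above every russet value for 3 members, where the share was 15.9%. The values of the lines overlapped for the other 20. Nothing is read from these counts, since the contrast chose the scaffold. A difference of -2 or lower, called strong here, was found for 24 members (3.50% of all genes) and one of 2 or higher for 1 member (2.96% of all genes). Of the 24, 103959752, 103959694, 103959743 and 103959739 passed the filter through russet skin alone, so their entry favoured a low difference. The number of strong genes depends on the pseudocount, with 8 at a pseudocount of 1. A difference within 1 of 0, called weak, was found for 46 members (82.7% of all genes). The remaining 23 lay between 1 and 2 from 0, 22 of them lower in green skin. No threshold separated the strong genes from the rest: 103959668 stood at -2.003 just inside and 103959670 at -1.999 just outside.

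**Figure D2:**
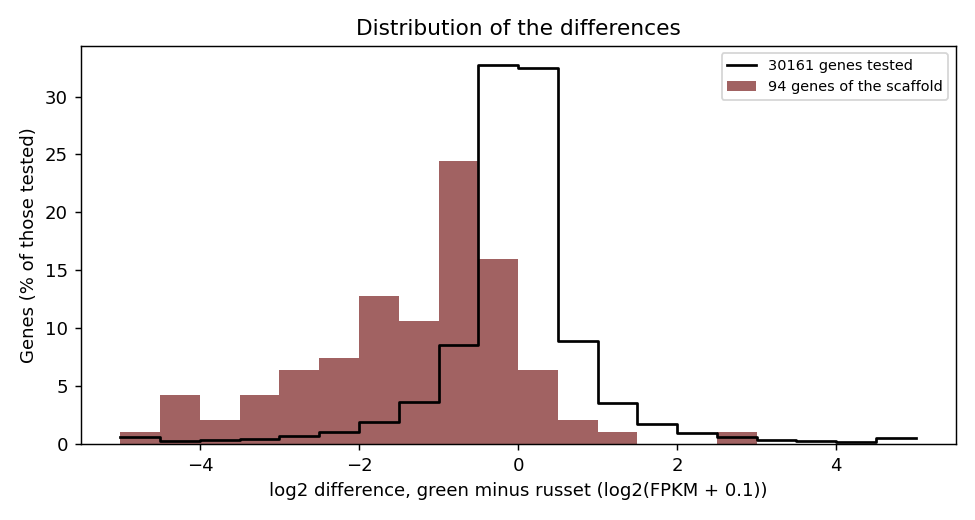
Share of genes (%) by log2 difference, green minus russet, on log2(FPKM + 0.1), in steps of 0.5. Filled bars are the 94 genes of the scaffold, and the line is all 30161 genes tested, with values beyond 5 placed in the outermost steps. The genes of the scaffold are shifted to the left and spread from -4.55 to 2.59, with the highest bar between -1 and -0.5.

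**Figure D3:**
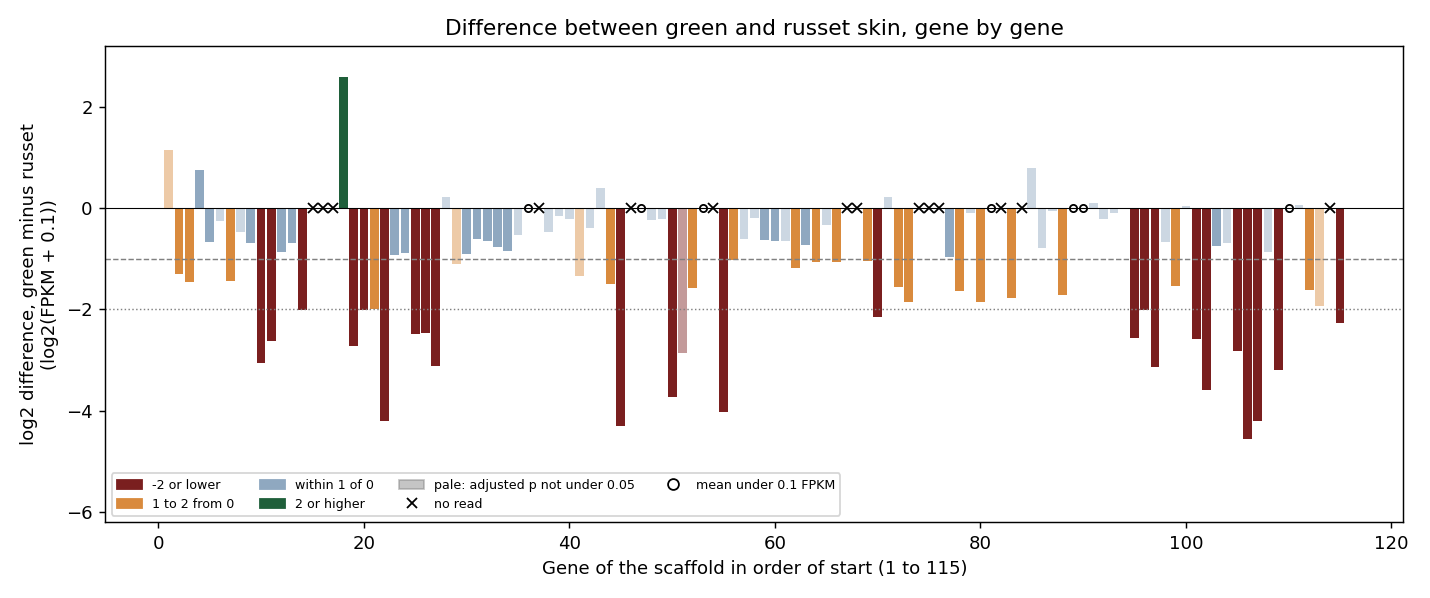
Log2 difference, green minus russet, of the 115 genes in order of their start. Colours give the size of the difference, pale bars are genes whose adjusted p was not under 0.05, crosses mark the 14 genes with no read and open circles the 7 genes with reads but a mean under 0.1 FPKM. Bars of -2 or lower stand in short groups along the whole scaffold, with weak bars between them.

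Strong and weak differences were mixed along the scaffold, with strong genes partly in short groups. In 10 pairs of neighbouring tested genes both were strong decreases. A run was taken as 2 or more neighbours of the same class and direction, with genes under the filter skipped. There were 7 runs of strong decrease with 17 genes in all, and the longest held 3 genes. The other 7 strong genes stood alone, and 16 of the 24 had a weak gene next to them. The runs were taken at the pseudocount of 0.1 and were not recounted at 1, where 8 genes were strong. There were 10 weak runs with 31 genes in all, all of genes lower in green skin, the longest of 9 genes. Between the 93 pairs of neighbours the median absolute step was 0.89, 23 steps were of at least 2, and Spearman's rho of a gene's difference with that of the next was 0.0954, given as a description, since all genes share the same 6 libraries. By 100000 bp of the scaffold, the median difference was -0.87, -0.87, -0.84, -1.06, -0.67, -2.58 and -1.78 from the first stretch to the last.

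In the first stretch, with 20 genes of which 17 were tested, differences of both directions stood side by side. The first gene, 108868113, had 0.480, 1.13 and 0.717 FPKM in green skin, against 0.0737, 0.351 and 0.597 FPKM in russet skin, and it did not pass at 1.14 (SE 0.57). The next, 103959650 and 103959651, were at -1.29 and -1.45 and passed, but 103959650 lost its call without A1, A3, B1 or B3, and 103959651 without any 1 library but B3. One of the 2 genes that passed as higher came next. Gene 103959652 had 16.1, 14.0 and 11.9 FPKM in green skin, against 7.34, 9.89 and 7.66 FPKM in russet skin, a difference of 0.75 (SE 0.17), with every green value above the russet ones. It lost its call when A1, A3, B1 or B2 was left out, with differences of 0.67, 0.70, 0.64 and 0.74. The first weak run was the pair behind it. Gene 103959653 had 25.6, 30.7 and 26.4 FPKM in green skin, against 45.2, 41.1 and 44.6 FPKM in russet skin, a difference of -0.66 (SE 0.11), and 103959655 had 5.61, 7.74 and 6.91 FPKM in green skin, against 8.52, 7.95 and 7.71 FPKM in russet skin and did not pass. Gene 103959658 came next at -1.44.

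A second weak run was made of 103959657, which had 0.932, 0.814 and 1.597 FPKM in green skin, against 1.16, 1.32 and 2.27 FPKM in russet skin, and 103959656. The values of 103959657 overlapped and it did not pass. Gene 103959656, which the study's tables place in oxidative phosphorylation, the chain that makes ATP in mitochondria, had 33.0, 27.9 and 34.9 FPKM in green skin, against 53.8, 48.0 and 51.5 FPKM in russet skin, a difference of -0.68 (SE 0.12). It was one of the 3 most abundant genes of the scaffold and was lower in all 3 green libraries.

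The first run of strong decrease followed directly. Gene 103959659 had 0.256, 0.0565 and 0.106 FPKM in green skin, against 1.90, 2.65 and 1.11 FPKM in russet skin, a difference of -3.06 (SE 0.44). Gene 103959663 had 2.06, 1.29 and 0.619 FPKM in green skin, against 10.9, 9.09 and 4.91 FPKM in russet skin, a difference of -2.63 (SE 0.46), with the lowest values of both lines in B3 and A3. Then came a weak run of the pair 103959662, which had 1.90, 1.89 and 2.28 FPKM in green skin, against 3.19, 4.47 and 3.76 FPKM in russet skin, and 103959661, which had 8.43, 10.7 and 10.1 FPKM in green skin, against 14.7, 17.1 and 15.5 FPKM in russet skin. Both passed, at -0.87 and -0.70, but 103959661 lost its call without A2 and 103959662 without A2, A3, B1 or B2. The strong gene 103959660 stood alone with 1.73, 1.58 and 1.29 FPKM in green skin, against 7.03, 5.53 and 6.96 FPKM in russet skin, a difference of -2.01 (SE 0.20).

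The only gene of the scaffold with a difference of 2 or higher came after 3 genes with no read. Gene 103959666 had 1.19, 0.362 and 0.409 FPKM in green skin, against 0, 0 and 0.0383 FPKM in russet skin. This rested on 47 reads in green skin, 31 of them in B1, and 1 read in russet skin. The gene passed the filter through green skin alone, so its entry favoured a high difference. Its difference was 2.59 (SE 0.48), and at a pseudocount of 1 it was 0.67 and did not pass. It lay directly before the second run of strong decrease, so neighbours differed in opposite directions. Gene 103959664, the first of that run, had 1.53, 1.21 and 2.86 FPKM in green skin, against 19.4, 8.12 and 11.3 FPKM in russet skin, a difference of -2.73 (SE 0.40). Gene 103959668 had 0.421, 0.560 and 0.405 FPKM in green skin, against 1.79, 1.79 and 3.04 FPKM in russet skin, a difference of -2.003 (SE 0.30).

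In the second stretch, with 20 genes of which 18 were tested, 12 were weak and 4 strong. It opened with 103959670, which had 17.9, 10.2 and 20.4 FPKM in green skin, against 62.7, 61.1 and 63.0 FPKM in russet skin, a difference of -1.999 (SE 0.25), and lay between 2 strong genes. Next to it 103959752, which the study's tables place in glycolysis and carbon fixation, had 0.0123, 0 and 0 FPKM in green skin, against 1.87, 1.66 and 1.95 FPKM in russet skin, that is 1 read in green skin and 423 in russet skin. The ratio of russet to green, scaled by library size, was 387 with a 95% interval of 69.1 to 15325 for counting error only, and the fitted difference was -4.21 (SE 0.28). The pair 103959669 and 103959671 behind it formed a weak run, so a gene almost without reads in green skin lay beside abundant ones. Gene 103959669 had 8.12, 9.91 and 8.99 FPKM in green skin, against 16.7, 15.4 and 19.6 FPKM in russet skin, a difference of -0.93 (SE 0.14). Gene 103959671 had 4.19, 6.78 and 7.23 FPKM in green skin, against 11.1, 9.56 and 12.4 FPKM in russet skin, a difference of -0.88 (SE 0.23), and lost its call without any 1 of A1, A2, A3, B1 and B2. Its call was also lost without the filter or without limma's trend.

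The third run of strong decrease held 3 genes. Gene 103959753 had 0.742, 0.564 and 1.06 FPKM in green skin, against 3.97, 5.35 and 5.004 FPKM in russet skin, a difference of -2.48 (SE 0.27). Gene 108868120 had 0.469, 0.184 and 0.830 FPKM in green skin, against 3.07, 4.42 and 1.63 FPKM in russet skin, a difference of -2.46 (SE 0.53), on 16 reads in green skin and 111 in russet skin, and lost its call without A1, A2, B1 or B2. With limma's voom on the recovered reads it did not pass either. Gene 103959673 had 0.573, 0.447 and 0.529 FPKM in green skin, against 5.995, 5.41 and 4.35 FPKM in russet skin, a difference of -3.11 (SE 0.22). These genes may not be fully separate measurements. On the plus strand, the span of 108868120 overlaps those of 103959753 by 760 bp and of 103959673 by 3105 bp. Both of these lie on the minus strand. The counted length of 108868120 is 307 bp, so whether counted sequence is shared is not known. The library kit and counting are not stated to keep strand, so reads on any shared sequence cannot be told apart.

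After 103959674 (0.22), which did not pass, and 103959676 (-1.10), which passed only without B3 and with limma's voom on the recovered reads, came the longest weak run, 9 genes in which all differences were negative. It ran from 103959675, which had 11.7, 9.32 and 10.6 FPKM in green skin, against 18.5, 18.4 and 22.5 FPKM in russet skin, a difference of -0.90 (SE 0.14), to 103959684, which had 4.75, 2.62 and 3.33 FPKM in green skin, against 5.13, 3.53 and 3.59 FPKM in russet skin, a difference of -0.21 (SE 0.27). Between them lay 103959677 (-0.62), 103959678 (-0.64), 103959679 (-0.76), 103959680 (-0.85), 103959682 (-0.54), 103959755 (-0.47) and 108868114 (-0.15). The first 5 of the run passed and the last 4 did not. Of these 5, 103959675 kept its call whichever library was left out, and each of the other 4 lost it in at least 3 of the 6 fits that left out 1 library. Gene 103959680 is listed by the study under lipid metabolism as a hydrolase acting on ester bonds.

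The third stretch, with 20 genes of which 16 were tested, held 4 strong and 8 weak genes. Gene 103959685 came first at -1.34 and did not pass. Of the 2 weak genes after it, with opposite signs, 103959686 had 6.30, 6.80 and 7.08 FPKM in green skin, against 8.56, 7.31 and 10.95 FPKM in russet skin, a difference of -0.39 (SE 0.17), and 103959756 had 2.27, 1.43 and 1.10 FPKM in green skin, against 1.05, 1.34 and 1.07 FPKM in russet skin, a difference of 0.39 (SE 0.31). Neither passed, and 103959756 was one of the 10 members with a positive difference. Gene 103959757 followed at -1.50.

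The second lowest difference was that of 103959687, which the study's tables place in the citrate cycle and oxidative phosphorylation, pathways of respiration. Gene 103959687 had 2.58, 2.21 and 1.26 FPKM in green skin, against 46.4, 38.2 and 36.7 FPKM in russet skin, a difference of -4.31 (SE 0.26), and its green mean was 2.02 ± 0.68 FPKM against a russet mean of 40.5 ± 5.2 FPKM (SD, n = 3 each). It stood alone. The nearest tested genes after it were 103959690, which had 2.40, 1.92 and 3.70 FPKM in green skin, against 3.09, 2.78 and 3.26 FPKM in russet skin, and 103959695, which had 4.99, 4.45 and 3.55 FPKM in green skin, against 4.92, 5.27 and 4.81 FPKM in russet skin. Their values overlapped between the lines, and neither passed, at -0.23 and -0.22.

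The fourth run of strong decrease followed. Gene 103959694 had 0, 0.0346 and 0 FPKM in green skin, against 1.91, 0.975 and 1.38 FPKM in russet skin, that is 1 read in green skin and 134 in russet skin. The scaled ratio of russet to green was 123, with a 95% counting interval of 21.6 to 4879, and the fitted difference was -3.74 (SE 0.35). Gene 103959693 had 0.0645, 0.152 and 0.171 FPKM in green skin, against 3.13, 3.59 and 0.257 FPKM in russet skin, a difference of -2.85 (SE 0.88), the only one of the 24 strong genes that did not pass. Its 3 russet values were far apart, and without A3 the difference was -3.94 and passed. After 103959692 (-1.57) the strong gene 103959696 had 0.264, 0.155 and 0.263 FPKM in green skin, against 5.03, 4.16 and 6.44 FPKM in russet skin, a difference of -4.02 (SE 0.28), with no overlap between the lines. Gene 103959697 was at -1.03, and its call was lost with the column number as a block, without the filter or without any 1 library but B2.

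A weak run of 5 genes, 103959698 to 103959703, held the most abundant gene of the scaffold. Gene 103959698 had 8.90, 7.40 and 13.3 FPKM in green skin, against 13.4, 13.5 and 17.4 FPKM in russet skin, and at -0.61 (SE 0.23) it did not pass, but did with the column number as a block or without B3. Genes 103959699 and 103959700 were at -0.20 and -0.62, of which 103959700 passed. The most abundant gene, 103959702, had 36.2, 36.1 and 38.6 FPKM in green skin, against 60.1, 54.2 and 59.2 FPKM in russet skin, a difference of -0.64 (SE 0.10). The last, 103959703, had 7.81, 10.97 and 11.1 FPKM in green skin, against 17.7, 12.8 and 16.3 FPKM in russet skin, a difference of -0.65 (SE 0.19) that passed under quantile normalization only. All 5 genes had every green value under every russet value, with differences of -0.65 to -0.20.

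The fourth stretch, with 21 genes of which 15 were tested, held 1 strong gene and the largest number of genes with no read, 5. Between 103959704 (-1.19), listed as an oxidoreductase, and 103959711 (-1.04) lay 103959707 (-0.73), 103959706 (-1.05) and 103959705 (-0.34), and 103959712, named as a GDSL esterase/lipase, an enzyme family that cleaves or joins esters of fatty acids. Of these genes, 103959705 alone did not pass. Gene 103959712 had 24.8, 24.3 and 26.9 FPKM in green skin, against 55.0, 47.0 and 57.9 FPKM in russet skin, a difference of -1.07 (SE 0.12), and was among the more abundant genes. The strong gene 103959709 had 1.61, 2.00 and 2.47 FPKM in green skin, against 7.53, 10.4 and 9.80 FPKM in russet skin, a difference of -2.15 (SE 0.22). On its other side 103959708 was at 0.22 and did not pass. Gene 103959761 (-1.56), whose call was lost without A1, A3, B1 or B3, and 103959762, which the study's tables place in nucleotide sugar and ascorbate metabolism, came next. Gene 103959762 had 3.76, 3.52 and 3.66 FPKM in green skin, against 13.3, 12.3 and 14.8 FPKM in russet skin, a difference of -1.86 (SE 0.13), so it was just short of strong with close values within each line. The stretch closed with 103959714 (-0.96), 108868116 (-1.64), 103959715 (-0.10) and 103959716 (-1.86), of which 103959715 alone did not pass.

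In the fifth stretch, with 17 genes of which 13 were tested, 8 were weak and 3 strong. Gene 103959717 opened it at -1.78. Gene 103959718 had 4.64, 6.35 and 8.03 FPKM in green skin, against 4.21, 2.49 and 4.15 FPKM in russet skin, with every green value above every russet one and a difference of 0.80 (SE 0.28) that did not pass. A weak run of 2 genes followed. Gene 103959720 had 19.7, 11.1 and 11.1 FPKM in green skin, against 29.2, 19.2 and 22.5 FPKM in russet skin, a difference of -0.79 (SE 0.26), and passed only with the column number as a block or without B1. The run ended behind the largest gap between genes of the scaffold, 23325 bp, with 103959725, which had 0.102, 0.160 and 0.180 FPKM in green skin, against 0.0834, 0.0663 and 0.440 FPKM in russet skin, a difference of -0.05 (SE 0.52) whose sign depended on the processing. Gene 103959724, listed by the study under ADP binding, had 0.473, 0.623 and 0.581 FPKM in green skin, against 1.76, 1.94 and 2.57 FPKM in russet skin, a difference of -1.72 (SE 0.26).

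Gene 103959722 had 0.273, 0.482 and 0.101 FPKM in green skin, against 0.261, 0.192 and 0.241 FPKM in russet skin, a difference of 0.09 (SE 0.44), which was -0.27 without B2. It was followed by a weak run of 3 genes. The first, 103959721, which overlaps 103959722 by 104 bp on the other strand, had 23.8, 23.0 and 21.7 FPKM in green skin, against 33.9, 21.4 and 25.8 FPKM in russet skin, a difference of -0.22 (SE 0.17), and 103959728 was at -0.11. The last, 103959727, had 7.57, 8.55 and 5.93 FPKM in green skin, against 6.77, 7.84 and 7.27 FPKM in russet skin, a difference of -0.0023 (SE 0.17), the closest to 0 of the scaffold. None of these 4 genes passed. The sign of 103959727 turned without A2 (0.050) or B3 (0.14).

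Directly after it came the fifth run of strong decrease, 3 genes that are all annotated in the study's tables. Gene 103959726, placed in RNA transport, the export of RNA from the nucleus, had 1.84, 1.54 and 2.30 FPKM in green skin, against 11.02, 10.95 and 12.7 FPKM in russet skin, a difference of -2.56 (SE 0.19). Gene 103959729, named as ABC transporter B family member 26, chloroplastic-like, a membrane pump driven by ATP, had 0.790, 0.601 and 0.832 FPKM in green skin, against 2.88, 3.52 and 3.48 FPKM in russet skin, a difference of -2.02 (SE 0.23). Gene 103959730, placed in the ribosome, had 8.78, 6.48 and 11.7 FPKM in green skin, against 88.0, 64.8 and 83.0 FPKM in russet skin, a difference of -3.14 (SE 0.23). The green mean of 103959730 was 8.99 ± 2.6 FPKM against a russet mean of 78.6 ± 12 FPKM (SD, n = 3 each), the highest russet mean of the strong genes. Gene 103959731 then stood at -0.67 and did not pass.

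The sixth stretch, with 9 genes that were all tested, had the lowest median and the gene with the lowest difference. Gene 103959732 (-1.55) lost its call with voom on the recovered reads or without any 1 of A1, A2, B1, B2 and B3. After it, gene 103959733 had 1.64, 0.968 and 0.341 FPKM in green skin, against 1.14, 0.576 and 0.818 FPKM in russet skin, with values that overlapped and a difference of 0.03 (SE 0.53). The sign of 103959733 turned without A2 (-0.19), B1 (-0.42) or B2 (-0.062). In the sixth run of strong decrease, 103959766 had 0.448, 0.577 and 0.494 FPKM in green skin, against 2.92, 3.23 and 4.61 FPKM in russet skin, a difference of -2.58 (SE 0.26). Gene 103959746 had 0.593, 0.895 and 1.13 FPKM in green skin, against 10.4, 10.1 and 13.7 FPKM in russet skin, a difference of -3.59 (SE 0.26). The weak pair after it was 103959745, which had 3.18, 3.42 and 4.41 FPKM in green skin, against 5.52, 5.72 and 7.32 FPKM in russet skin, and 103959767, which had 0.501, 0.590 and 0.428 FPKM in green skin, against 0.674, 0.803 and 1.24 FPKM in russet skin, at -0.74 and -0.70. Gene 103959745 passed, but lost its call without the filter, without limma's trend or without any 1 of A1, A2, A3, B1 and B2. Gene 103959767 did not pass.

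The seventh run of strong decrease, the last, held 3 genes without overlap between the lines. Gene 103959744 had 0.501, 0.577 and 0.620 FPKM in green skin, against 4.38, 3.80 and 5.76 FPKM in russet skin, a difference of -2.82 (SE 0.24). Gene 103959743 had 0, 0 and 0 FPKM in green skin, against 2.23, 2.63 and 1.92 FPKM in russet skin, on 0 green and 741 russet reads. With a floor of 3 reads over the green libraries it was at least 226-fold lower in green skin, and its fitted difference of -4.55 (SE 0.28) was the lowest of the scaffold. Gene 103959742 had 0.617, 0.545 and 0.532 FPKM in green skin, against 11.1, 15.5 and 10.4 FPKM in russet skin, a difference of -4.21 (SE 0.21). Its span overlaps that of 103959743 by 4545 bp on the opposite strand, and that of 103959744 overlaps 103959767 by 430 bp in the same way. The counted length of 103959742 is 778 bp, so whether it shares counted sequence with 103959743 is not known. Reads on any sequence shared by 103959742 and 103959743 cannot be told apart by strand, yet 103959742 kept 48 green reads where 103959743 had none.

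**Figure D4:**
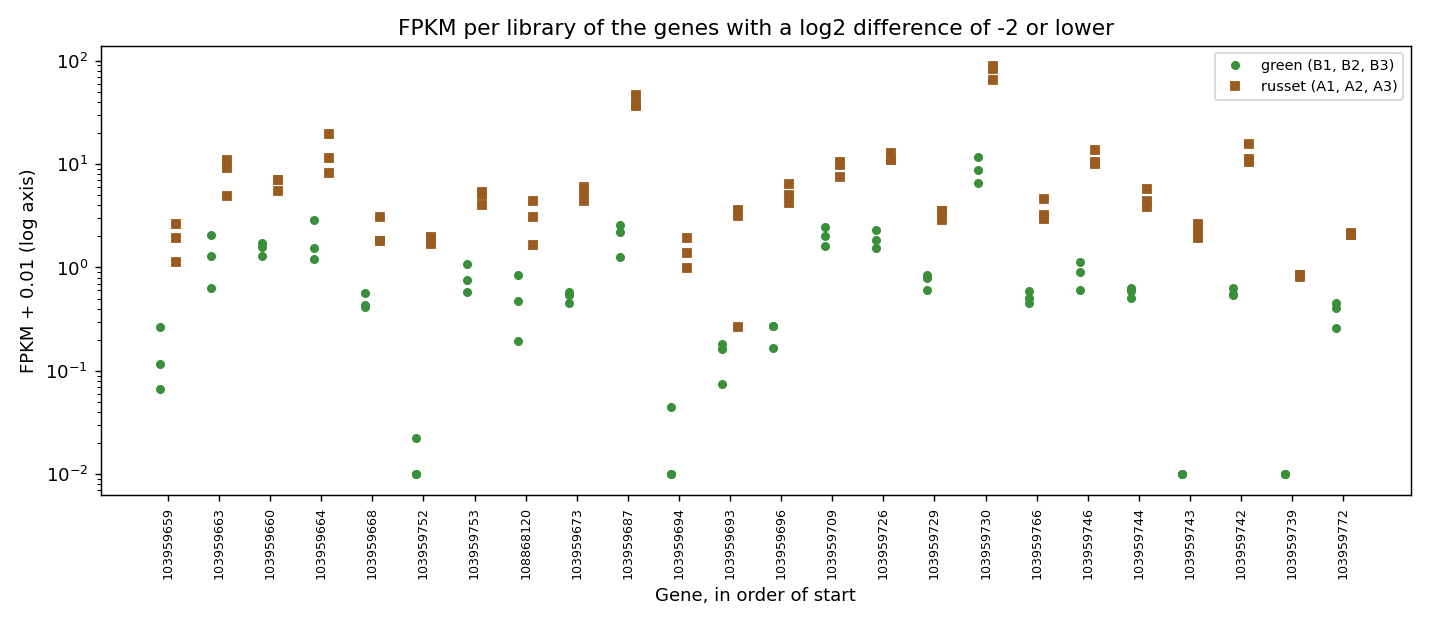
FPKM + 0.01 on a log axis of the 24 genes with a difference of -2 or lower, in order of start, with green libraries (circles) left of russet libraries (squares). Points at the bottom are libraries with no read. In all 24 genes the 3 green values lie under the 3 russet values, and 103959693 has 1 russet value near the green ones.

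In the last stretch, with 8 genes of which 6 were tested, 103959736 had 16.5, 16.7 and 11.1 FPKM in green skin, against 26.1, 34.4 and 20.4 FPKM in russet skin, and at -0.86 (SE 0.24) it passed only with the column number as a block or without A3. Gene 103959739 had 0, 0 and 0 FPKM in green skin, against 0.836, 0.830 and 0.791 FPKM in russet skin, on 0 green and 41 russet reads, so it was at least 12.5-fold lower with the same floor, at a fitted -3.20 (SE 0.29). Gene 103959747 had 18.4, 13.6 and 8.49 FPKM in green skin, against 21.1, 8.01 and 10.9 FPKM in russet skin, with values that overlapped, at 0.07 (SE 0.41), and its sign turned without A2 (-0.24), A3 (-0.018) or B1 (-0.19). Gene 103959748, listed under oxidation and reduction, was at -1.61. Gene 103959749 had 0.0319, 0 and 0.0848 FPKM in green skin, against 1.10, 0.156 and 0.349 FPKM in russet skin, on 3 reads in green skin and 44 in russet skin, a scaled ratio of 13.4 with a 95% counting interval of 4.30 to 67.6, and passed only without A2. The last gene, 103959772, had 0.251, 0.394 and 0.445 FPKM in green skin, against 2.06, 2.14 and 2.06 FPKM in russet skin, a difference of -2.26 (SE 0.27), with almost equal values in the russet libraries.

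The 21 members without a test were low or silent in both lines. No read was found for 14 (12.2% of the members, where the share over all genes was 18.3%). In order of start they were 108868118, 103959750, 103959667, 103959754, 103959688, 103959759, 103959760, 108868115, 108868123, 103959713, 108868122, 108868125, 103959764 and 103959771. They were short, with a median deposited length of 465 bp and 10 of 14 under 1000 bp, where the members with a read had a median of 1489 bp. Those with no read stood partly together, as 108868118, 103959750 and 103959667 before 103959666, 103959760 with 108868115, and 108868123, 103959713 and 108868122. The spans of 103959760 and 108868115 overlap by 1188 bp on the same strand, so they may not be separate measurements. With 31381552 to 42729578 reads per library, a single read over 1000 bp equals 0.0234 to 0.0319 FPKM, so a very low level of such short genes was not detectable at this depth.

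Reads at a mean under 0.1 FPKM were found for 7 members, on 1 to 48 reads over the 6 libraries. Gene 103959763 had 0, 0 and 0 FPKM in green skin, against 0.0630, 0.0625 and 0.102 FPKM in russet skin, on 0 green and 17 russet reads, at least 5.13-fold lower in green skin. Gene 103959689 had 1 read in green skin and 13 in russet skin, a scaled ratio of 11.9 with a 95% counting interval of 1.79 to 506. Green skin had 9 reads of 103959765, russet skin 0, and 103959723 had 18 reads in green skin, 30 in russet. The others were 108868124 with 0 in green skin and 5 in russet skin, 103959683 with 3 in green skin and 1 in russet skin, and 103959758 with 0 in green skin and 1 in russet skin. Both lines were near the floor of 3 reads for these last 3 genes.

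Level and strand are given as a description, since the mean over 6 libraries holds the green values that chose the scaffold. The tested members had a median of 4.43 FPKM over the 6 libraries, where all genes tested had 6.09 FPKM, and 22 (23.4%) reached 10 FPKM, where 38.7% of all genes did. The median difference was -0.87 for the 14 members under 1 FPKM, -1.47 for the 58 from 1 to 10 FPKM and -0.69 for the 22 at 10 FPKM or more. Of the 24 strong decreases, 19 were in the middle class and 2 in the highest. The median difference was -1.06 for the 45 genes of the plus strand and -0.90 for the 49 of the minus strand, and each strand held 12 strong genes. The spread within a line was not used to choose the scaffold. The median SD of a member on the log2 scale was 0.25 in green skin and 0.22 in russet skin, where over all genes it was 0.25 in green skin and 0.23 in russet skin. The libraries of a line were thus about as alike on this scaffold as over all genes. Overlapping positions were found for 8 pairs of members, 15 genes in all, whose reads may be shared.

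Annotation was found for 12 members in the study's tables. For 10 it came from lists made of genes that differed between the lines, which say nothing independent of direction, and for 103959712 and 103959729 it came from tables of 2 gene families. The paper describes its GDSL lipase genes as varying in expression between the skins, so 103959712 was not independent of the contrast either. All 12 passed as lower in green skin, where 8.05% of all genes did, and nothing is read from this, as the lists favoured genes that differ. Their differences were -4.31 to -0.68, and 5 of them were strong (103959752, 103959687, 103959726, 103959729 and 103959730). They ranged over respiration, sugar metabolism, transport, lipid cleavage, RNA export and the ribosome, with no function shared by all.

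Medians of the 424 other scaffolds with 20 or more tested genes had a 5th percentile of -0.16 and a 95th percentile of 0.19. Scaffold NW_008988726.1 alone had a lower median, -2.23, with 28 of 28 genes lower in green skin. Of these, 23 passed as lower, beside 8.05% of all genes. Scaffold NW_008988240.1 had the highest, 0.56, with 75 of 94 genes higher in green skin. On it 37 genes passed as higher, beside 7.29% of all genes. Another 8 passed as lower, and 5 genes stood at -2 or lower. All scaffolds were read in the same 6 libraries, and no test of their order was made.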

How the data were processed

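Fruit skin of green ‘Suisho’ and russet ‘Niitaka’ was measured by RNA-Seq in 6 samples, 3 of each line. The authors filtered the reads, aligned them with HISAT2 2.0.4 to the Chinese white pear genome, assembled transcripts with Cufflinks 2.1.1 and deposited the FPKM of each gene in each library. Tables of the authors' own comparisons were not used for any value. The version of the assembly and the strand setting are not given in the sources used here. The deposited columns carry only the letters A and B, which the study's supplementary legend names russet and green. Which column is which sample of a line is not given. Positions are those of the deposited gene table, and no sequence or protein table was used here.

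The number of reads behind each FPKM value was worked out from the length of its gene, and a result within 0.0001 of an integer was taken as whole. With the deposited length 74.5% of 191857 values came out whole, and for the rest (25 members of the scaffold among 8439 genes) a length of 20 to 40000 bp was searched. The libraries held 31381552 to 42729578 reads. Intervals and floors (3 reads over a line) cover counting error only. Sequencing was paired-end, and both reads of a fragment may be counted separately. The intervals may therefore be too narrow and the fold bounds too high.

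The difference of each gene was fitted in R 4.3.3 with the package limma 3.58.1 (two-sided, moderated with a trend) on log2(FPKM + 0.1) over the 30161 genes that averaged 0.1 FPKM or more, with a Benjamini-Hochberg adjusted p under 0.05. The script was tested on simulated data. Samples are separate pools of fruit per the study's methods, and trees are not named. The column number is the only number the files give, and it is not shown to match the sample numbers of the labels. Libraries with the same column number deviated together from their line means (r = 0.20 for B1 and A1, 0.21 for B2 and A2, 0.32 for B3 and A3, over genes), so a fit with that number as a block was an alternative, beside other pseudocounts, filters, scalings, voom on recovered reads and leaving out each library. Summaries used pandas 2.3.3, numpy 2.4.6 and scipy 1.17.1 under Python 3.11.15, and plots matplotlib 3.10.9.

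The scaffold, the lists of barrier genes and the rules were chosen with earlier results of these data known. Named with values per library were genes with an absolute difference of at least 2, genes with no read in one line and at least 10 in the other, the ends of each run, the 3 most abundant genes and those nearest to no change, and all others by their difference. Values of a few further genes were added after they had been seen.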

Additional observations from a re-analysis of the deposited data

Results flagged for a closer look

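The locus Novel00337, newly assembled by the authors on the minus strand of the scaffold and left out of its genes by the rule, had 0 reads in every green library and 24, 45 and 51 reads in the russet libraries A1, A2 and A3, which makes 120 reads in russet skin. Its values in A1, A2 and A3 were 0.143, 0.214 and 0.247 FPKM, so it passed the filter through russet skin alone. Among all genes of the table, 328 had no read in green skin and a read in every russet library. The locus was part of the fit and shares over all genes, but of no count of the members. It lies between 103959720 and 103959725, in the largest gap of the scaffold, and shares its position with Novel00336 on the other strand, which had no read in any library.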

How the results depend on the processing

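Over all alternatives 47 to 60 members passed as lower in green skin, against 58, and no member that passed changed direction. Leaving out 1 library gave 47 to 55, and 44 passed as lower whichever library was left out. The labels number the russet samples 1, 2 and 3 and the green ones 2, 3 and 4, so the column number is not shown to be a sample's replicate number. With that number as a replicate block 60 passed as lower, 1 member (103959697) losing its call and 3 (103959698, 103959720 and 103959736) gaining it, and no other call changed. Genes passing as higher numbered 1 at a pseudocount of 1 and 1 among genes of at least 1 FPKM, and 1 to 2 when a library was left out. At a pseudocount of 1 the strong decreases were 8 and the median was -0.73, which follows from the larger constant. Without the filter the median was -0.88, and without 1 library it was -0.99 to -0.93. With strong taken as at least 1 there were 13 runs of decrease. Runs were not recounted at other pseudocounts. The sign turned for 7 tested members in at least 1 alternative, none of which had passed: 103959725 was at 0.059 with a pseudocount of 0.01, 0.0035 under quantile normalization, 0.0048 with voom, and -0.36 to 0.49 without 1 library. Without 1 library 103959722 was at -0.27 to 0.50, 103959727 at -0.12 to 0.14, 103959733 at -0.42 to 0.58, 103959747 at -0.24 to 0.46, 108868114 at -0.38 to 0.20 and 103959715 at -0.24 to 0.0055. Apart from the 8 strong decreases named, their number was 21 to 28. Low genes rest on few reads, and 3 libraries a line limit the precision.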
